A study of Mus musculus with 12 samples.

Results

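The ventral hippocampus of mice that had received AAV8-eGFP and SSDS was compared with that of untreated mice, across all genes of the deposited count table. The comparison used 6 of the 12 libraries of the series, 3 labelled SSDS (called SSDS-GFP here) and 3 labelled as having no treatment (called control). All of the mice were wild type by their labels. AAV8 is an adeno-associated virus serotype that transduces liver readily, and eGFP is a fluorescent reporter that serves as the control cargo for a knockdown virus. SSDS usually stands for subthreshold social defeat stress in this field, a short exposure to an aggressive mouse, although the labels leave the letters unexplained. The deposited columns of this group carry the letters TBG, which the labels do not explain either, and the promoter, route of injection, strain, sex and age were not given in the sources used here. Controls received neither virus nor stress, so the effects of the virus and of SSDS cannot be told apart. The labels do not say that replicates were separate animals, and p-values therefore measure the spread between libraries, which may be technical.

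The ventral part of the hippocampus is known for its links to anxiety, social behaviour and the hormonal response to stress. Cells that accumulate unfolded proteins in the endoplasmic reticulum (ER) raise the chaperones and disulfide isomerases of that compartment through the transcription factors Xbp1, Atf6 and Atf4. A related response in the cytosol is driven by the factor Hsf1 and raises heat shock proteins. Neurons that fire raise another group, the immediate early genes, within minutes.

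The libraries held 14656714 (SSDS-GFP 1) to 16803073 (SSDS-GFP 3) counts, and 16207 of the 54532 listed genes had enough counts to be tested. Levels are given as CPM, the usual count unit relative to library size, after TMM scaling. Markers of the labelled tissue were present, with all 20 dentate gyrus, 18 CA1 and subiculum and 17 CA3 and CA2 marker genes tested. Replicates of SSDS-GFP varied more than controls, with a median SD of log2 CPM over genes of 0.239 against 0.149.

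SSDS-GFP 3 stood apart from the other libraries in transcripts of immune cells. By a rule chosen after the data were seen, 57 genes outside the test had at least 30 counts in that library and at least 8 times the count of any other of the 6, and 0 genes met the rule in any other library. Ccl5, a chemokine that attracts leukocytes, had 1391 counts there and 2, 3, 8, 1 and 2 in Control 1, 2 and 3 and SSDS-GFP 1 and 2. Tnf, an inflammatory cytokine, had 219 counts against 0, 0, 2, 0 and 0 in the same order. The 57 genes summed to 8712 counts in SSDS-GFP 3, 0.0518% of its total, and to 82 to 149 counts in the others. Ptprc, the leukocyte antigen CD45, had 77 counts there against 26 to 62 in the others. Markers of T cells, B cells and neutrophils had too few counts in any library to be compared. Ly6g was at 0 in all 6 libraries, Cd3e and Ms4a1 had at most 1 count in any, and Cd8a, Cd79a and S100a9 had 6, 5 and 13 counts in SSDS-GFP 3 and at most 3, 3 and 8 in the others. Medians without SSDS-GFP 3 stand beside several of the lists below.

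**Figure D1:**
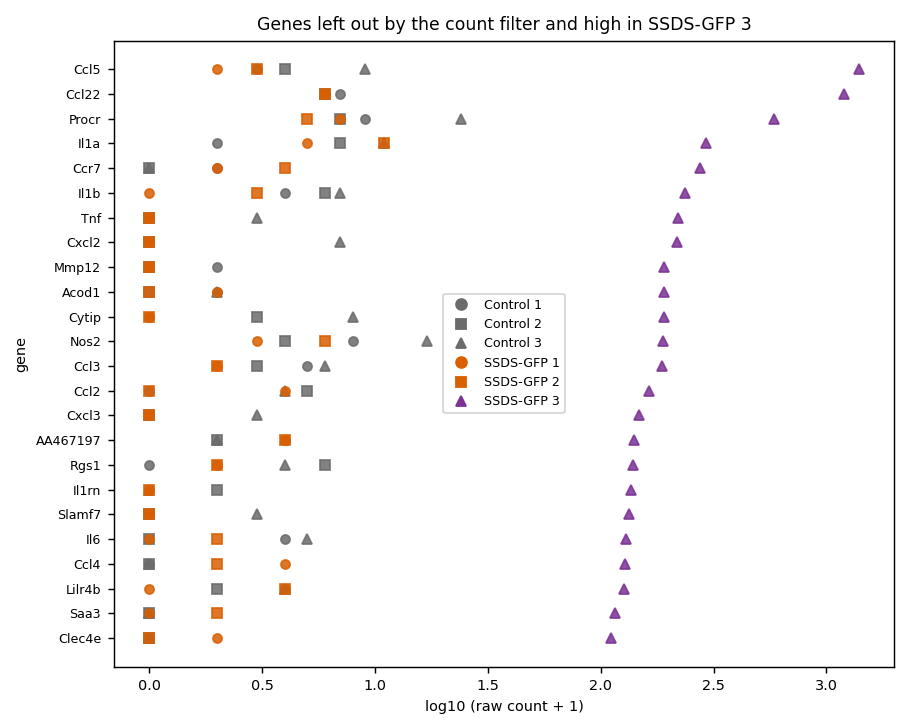
Raw counts, as log10 of the count plus 1, of the genes with the highest counts in SSDS-GFP 3 among the 57 described above, with 1 point for each of the 6 libraries. SSDS-GFP 3 lies to the right of every other library in each line, as the rule that picked the genes requires, with Ccl5 at 1391 counts.

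The comparison asks what SSDS with a control virus changed in this region relative to untreated mice. Chaperones of the ER and the cytosol and several immediate early genes rose in SSDS-GFP, while Adcy1, Cacng5, Wnt9a and Vwf were among the genes that fell. Of 16207 genes, 34 passed edgeR's quasi-likelihood test at an adjusted p under 0.05 (0.210%), 18 higher (0.111%) and 16 lower (0.0987%) in SSDS-GFP. The groups overlapped in 0 of the 34, a separation that 12.8% of all tested genes showed upward and 11.5% downward. Of the 34 genes, 16 differed at least 2-fold, 9 upward and 7 downward. At an unadjusted p under 0.05 there were 1649 higher and 1268 lower genes, and the median log2 fold change over all genes was 0.00777.

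The number of calls depended on which libraries were used. It was 0 without Control 1, Control 2, Control 3 or SSDS-GFP 1, where the smallest adjusted p was 0.23, 0.102, 0.107 and 0.156. It was 1051 without SSDS-GFP 2 and 63 without SSDS-GFP 3, and these held 34 and 33 of the 34 genes. All 34 genes had the same sign in each of these 6 fits, which was largely fixed in advance because their groups did not overlap.

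Hspa5 (ENSMUSG00000026864, chromosome 2, 34771970 to 34777547, mm10) encodes BiP, the main Hsp70 chaperone of the ER. It measured 172.8, 169.4 and 169.3 CPM in Control 1, 2 and 3 and 412.9, 421.8 and 375.9 CPM in SSDS-GFP 1, 2 and 3. Every SSDS-GFP library exceeded every control by far more than controls differed from each other. Mean levels were 170.5 ± 2.01 and 404 ± 24.3 CPM (SD, n = 3, as for all means here), which gave a log2 ratio of 1.24 ± 0.11 (SE, with an adjusted p of 0.0118).

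Sdf2l1 (ENSMUSG00000022769, chromosome 16, 17130138 to 17132383), a partner of ER Hsp40 proteins, measured 9.47, 9.27 and 10.1 CPM in the controls and 30.8, 25.5 and 25.4 CPM in SSDS-GFP. The groups were well separated, and its 2.82-fold higher level was the largest rise of the ER list (adjusted p = 0.0118). Pdia4 (ENSMUSG00000025823, chromosome 6, 47796141 to 47813430), a protein disulfide isomerase, measured 31.7, 30.1 and 27.0 CPM in the controls and 64.0, 68.8 and 63.9 CPM in SSDS-GFP. All 3 SSDS-GFP libraries lay close together and above the controls, with a log2 fold change of 1.15 ± 0.11 (adjusted p = 0.0148).

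Manf (ENSMUSG00000032575, chromosome 9, 106838312 to 106891979), a secreted survival factor of the ER, measured 37.4, 40.7 and 41.1 CPM in the controls and 90.0, 79.3 and 80.7 CPM in SSDS-GFP. Its log2 fold change was 1.07 ± 0.11 (adjusted p = 0.0172), with no overlap. Xbp1 (ENSMUSG00000020484, chromosome 11, 5520659 to 5525893), the transcription factor that is activated by splicing, measured 53.6, 61.1 and 61.2 CPM in the controls and 114, 109 and 117 CPM in SSDS-GFP. Control 1 was the lowest library and the SSDS-GFP libraries were alike. The log2 fold change was 0.95 ± 0.11 (adjusted p = 0.0329), and gene counts do not separate the spliced form.

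Pdia6, a further disulfide isomerase, measured 85.4, 91.8 and 106 CPM in the controls and 196, 185 and 184 CPM in SSDS-GFP. Creld2, an ER protein with disulfide isomerase activity, measured 11.4, 14.1 and 12.4 CPM in the controls and 28.9, 22.2 and 28.5 CPM in SSDS-GFP. Calr, the calcium-binding chaperone calreticulin, measured 249.9, 273 and 260.0 CPM in the controls and 433, 411 and 437 CPM in SSDS-GFP. In each of the 3 genes the lowest SSDS-GFP library exceeded the highest control. Their log2 fold changes were 0.99 ± 0.12 for Pdia6 (adjusted p = 0.0329), 1.07 ± 0.15 for Creld2 (adjusted p = 0.0437) and 0.71 ± 0.10 for Calr (adjusted p = 0.0437).

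These ER genes are textbook targets of the unfolded protein response, whose factors bind the ER stress response element (ERSE), which reads CCAAT, then 9 bases of any kind, then CCACG, on either strand. The RefSeq promoter windows of GRCm38.p6, from 250 bases before to 50 after a start site, were searched for it. The same windows were searched for other known elements, namely ERSE-II, the UPRE core, the heat shock element and CRE. Each of those was in 0 of the 16 called higher genes that had a window. The ERSE was found in 4 of the 16, in 0 of the 10 called lower and in 0.163% of the 11659 tested genes with a window. Counted by window, it was in 0.119% of all 32851. The bases just before the start site of those 4 genes are shown 5′ to 3′ on the gene's strand, because they are the called genes that share the element. Capitals mark the element, which Creld2 and Calr hold as its reverse complement.
Hspa5, chr2:34771940-34772089, plus strand: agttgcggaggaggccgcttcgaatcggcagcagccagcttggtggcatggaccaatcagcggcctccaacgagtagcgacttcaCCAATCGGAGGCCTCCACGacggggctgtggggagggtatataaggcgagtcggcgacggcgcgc
Pdia6, chr12:17266439-17266588, plus strand: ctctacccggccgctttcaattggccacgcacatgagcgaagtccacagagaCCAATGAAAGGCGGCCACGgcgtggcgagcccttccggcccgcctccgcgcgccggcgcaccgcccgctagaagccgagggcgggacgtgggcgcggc
Creld2, chr15:88819496-88819645, plus strand: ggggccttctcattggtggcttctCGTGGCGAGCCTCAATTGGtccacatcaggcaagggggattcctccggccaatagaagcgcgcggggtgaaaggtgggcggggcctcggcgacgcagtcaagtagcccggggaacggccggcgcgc
Calr, chr8:84846932-84847131, minus strand: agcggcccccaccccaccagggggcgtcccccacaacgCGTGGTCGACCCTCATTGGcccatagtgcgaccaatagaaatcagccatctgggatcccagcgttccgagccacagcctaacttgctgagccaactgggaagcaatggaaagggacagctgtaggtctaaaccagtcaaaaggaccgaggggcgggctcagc

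The element began 65 bases before the start site in Hspa5, 98 in Pdia6, 126 in Creld2 and 162 in Calr. Over the whole ER list the ERSE was present in 8 of the 22 genes with a window (36.4%), against 0.163% of the 11659 tested genes with one. ERSE-II was in 2 of the 22 and the UPRE core in 0, against 0.0772% and 1.05% of those tested genes. The ERSE was first defined on genes of this kind, so its share in the list is no independent evidence. The same holds for its share in the called higher genes, whose 4 carriers are all on the list. Of the 4 other carriers on the list, Hsp90b1 had a log2 fold change of 0.66 ± 0.11 (adjusted p = 0.0571), Syvn1 0.47 ± 0.12, Dnajc3 0.22 ± 0.17 and Canx 0.12 ± 0.11, and none was called. A match is a match of letters only, and binding was not measured here.

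Over the list of 25 tested ER chaperone and unfolded protein response genes, 8 rose and 0 fell, 22 had a log2 fold change above 0, and the median was 0.51. Over all tested genes 50.9% lay above 0 and 0.111% were called higher. SSDS-GFP exceeded all controls in 18 of the 25, against 12.8% of all tested genes. Other regulators of the response, Atf6, Ern1, Ddit3 and Atf4, did not pass the test, whereas Xbp1 did. Atf6, the membrane-bound factor, measured 99.5, 92.1 and 113 CPM in the controls and 78.8, 79.7 and 46.1 CPM in SSDS-GFP (log2 fold change -0.58 ± 0.20, adjusted p = 0.194). Ern1, the kinase and nuclease that splices Xbp1, had a log2 fold change of -0.31 ± 0.26 with overlapping groups (adjusted p = 0.556). Ddit3, the proapoptotic factor CHOP, had 0.60 ± 0.14 (adjusted p = 0.113) and Atf4 had 0.51 ± 0.15 (adjusted p = 0.134). The mean score of the list, its log2 CPM relative to the average of the 6 libraries, was -0.28, -0.28 and -0.23 in the controls and 0.30, 0.25 and 0.23 in SSDS-GFP. SSDS-GFP 3 did not stand apart in this list, where 10 members were called without it and 15 without SSDS-GFP 2. Those fits called 63 of 16515 and 1051 of 16589 tested genes in all. Without Control 1, 2 or 3 or SSDS-GFP 1, 0 members were called.

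**Figure D2:**
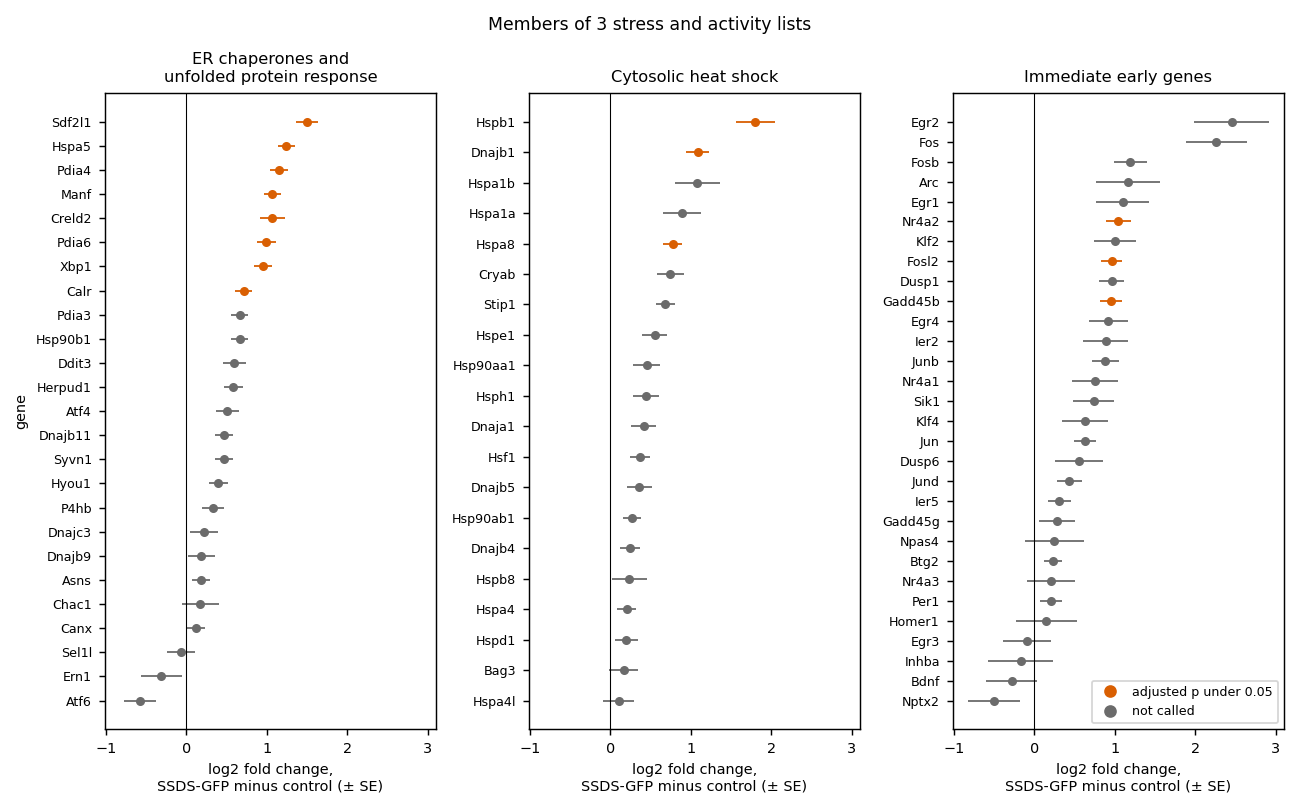
Log2 fold change with its standard error for the 25 ER chaperone, 20 cytosolic heat shock and 30 immediate early genes tested, SSDS-GFP minus control, with genes at an adjusted p under 0.05 in orange. The called members number 8, 3 and 3, and most members of each list lie to the right of 0.

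Cytosolic heat shock genes also lay above 0, in 20 of 20 tested members, with 3 called higher, 0 lower and a median of 0.43 on the log2 scale. SSDS-GFP exceeded all controls in 11 of the 20. The shares over all tested genes were 50.9% above 0, 0.111% called higher and 12.8% apart upward. Hspb1 (ENSMUSG00000004951, chromosome 5, 135887919 to 135889563), a small heat shock protein that blood vessels, glia and stressed neurons make, measured 3.11, 2.46 and 4.44 CPM in the controls and 12.98, 10.5 and 11.6 CPM in SSDS-GFP. It had the largest fold of any called gene, with a log2 value of 1.80 ± 0.24 (adjusted p = 0.0437), and lost its call when the trend with gene length was removed. Dnajb1 (ENSMUSG00000005483, chromosome 8, 83608193 to 83612653), an Hsp40 partner of Hsp70, measured 34.3, 42.0 and 41.2 CPM in the controls and 94.9, 71.4 and 82.8 CPM in SSDS-GFP. The lowest SSDS-GFP library was well above the highest control (log2 fold change 1.08 ± 0.14, adjusted p = 0.0437).

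Hspa8, the constitutive Hsp70 of neurons, measured 1459, 1446 and 1449 CPM in the controls and 2760, 2395 and 2279 CPM in SSDS-GFP. Its controls were nearly equal, and its log2 fold change was 0.77 ± 0.11 (adjusted p = 0.0437). Stip1, which passes clients from Hsp70 to Hsp90, measured 165, 167 and 159 CPM against 289, 229 and 272 CPM without passing the test (0.68 ± 0.12, adjusted p = 0.073). Among the heat-inducible copies, whose near-identical sequences make their counts uncertain, Hspa1a had 0.89 ± 0.24 and Hspa1b 1.08 ± 0.28, both uncalled. Without SSDS-GFP 3, and likewise without SSDS-GFP 2, 6 members of the list were called. These fits called 63 of 16515 and 1051 of 16589 tested genes in all. Leaving out Control 1, 2 or 3 or SSDS-GFP 1 gave 0 called members. The median of the list was 0.58 without SSDS-GFP 3.

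Immediate early genes had the highest median of the 40 lists, 0.68, with 26 of 30 members above 0, 3 called higher and 0 lower. SSDS-GFP exceeded all controls in 14 of the 30. The shares over all tested genes were 50.9% above 0, 0.111% called higher and 12.8% apart upward. Fosl2 (ENSMUSG00000029135, chromosome 5, 32135801 to 32157842), a partner of Jun in the AP-1 factor, measured 28.8, 29.8 and 29.3 CPM in the controls and 48.4, 57.8 and 64.6 CPM in SSDS-GFP. SSDS-GFP 3 was its highest library (log2 fold change 0.96 ± 0.13, adjusted p = 0.0437). Nr4a2, a nuclear receptor that neuronal activity induces, measured 25.4, 20.6 and 31.4 CPM in the controls and 54.7, 51.4 and 53.4 CPM in SSDS-GFP. The SSDS-GFP libraries were nearly equal while the controls spread (1.04 ± 0.15, adjusted p = 0.0437). Gadd45b, which takes part in DNA repair and activity-linked demethylation, measured 13.8, 15.6 and 14.8 CPM against 30.9, 24.4 and 30.3 CPM (0.95 ± 0.13, adjusted p = 0.0437).

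Other members did not pass the test. Fos, the classical activity marker, measured 3.98, 1.62 and 5.33 CPM in the controls and 22.8, 17.5 and 12.6 CPM in SSDS-GFP, a log2 difference of 2.26 ± 0.38 (adjusted p = 0.0619). Its groups did not overlap, and leaving out 1 library at a time gave an adjusted p from 0.031 (without SSDS-GFP 2) and 0.0377 (without SSDS-GFP 3) to 0.364. Dusp1, a phosphatase that ends MAP kinase signals, measured 13.1, 12.1 and 10.8 CPM against 25.5, 19.2 and 25.4 CPM (0.96 ± 0.16, adjusted p = 0.0571). Bdnf, the neurotrophin that activity also induces, measured 62.1, 43.9 and 85.8 CPM against 59.1, 68.8 and 30.0 CPM, with SSDS-GFP 3 lowest and the groups overlapping (-0.28 ± 0.31, adjusted p = 0.667). Immediate early genes scored 0.60, 0.31 and 0.08 on average in SSDS-GFP 1, 2 and 3 and -0.36, -0.55 and -0.07 in the controls, so SSDS-GFP 3 exceeded Control 3 by little. The list held 6 called genes without SSDS-GFP 3 and 11 without SSDS-GFP 2, where 63 of 16515 and 1051 of 16589 tested genes were called. It held 0 without Control 1, 2 or 3 or SSDS-GFP 1.

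The remaining called higher genes were Fabp7, Ak4, P4ha1 and Cib2. Fabp7, the brain fatty acid binding protein of astrocytes and progenitors, measured 22.3, 16.4 and 21.6 CPM in the controls and 37.1, 46.5 and 53.5 CPM in SSDS-GFP. The groups were apart by more than the controls' spread (log2 fold change 1.19 ± 0.17, adjusted p = 0.0437), and the call was lost with the length trend removed. Ak4, a mitochondrial adenylate kinase, had a log2 fold change of 0.84 ± 0.12. P4ha1, a collagen prolyl hydroxylase that resides in the ER, had 0.82 ± 0.12, and Cib2, a calcium-binding protein, had 0.82 ± 0.12.

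Among the 16 called lower genes, those of synaptic and neuronal signalling included the most abundant. Adcy1 (ENSMUSG00000020431, chromosome 11, 7063489 to 7178506), the calcium-stimulated adenylyl cyclase of hippocampal neurons, measured 1005, 1061 and 1357 CPM in the controls and 564, 569.8 and 409 CPM in SSDS-GFP. Control 3 was its highest library and SSDS-GFP 3 its lowest (log2 fold change -1.15 ± 0.17, adjusted p = 0.0437). Cacng5 (ENSMUSG00000040373, chromosome 11, 107874605 to 107915055), an auxiliary subunit of AMPA receptors, measured 14.5, 12.2 and 14.5 CPM in the controls and 6.42, 5.36 and 4.23 CPM in SSDS-GFP. Every SSDS-GFP library was well below the controls (-1.37 ± 0.20, adjusted p = 0.0437).

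Wnt9a (ENSMUSG00000000126, chromosome 11, 59306928 to 59333552), a secreted Wnt ligand, had the largest fall, from 19.2, 11.7 and 16.7 CPM in the controls to 5.05, 4.51 and 6.18 CPM in SSDS-GFP. The controls spread widely but did not reach the SSDS-GFP libraries (log2 fold change -1.59 ± 0.22, adjusted p = 0.0437). The long noncoding RNA 9930014A18Rik fell by 1.58 ± 0.22 on the log2 scale. Add2, the neuronal beta adducin that caps actin in synapses, measured 374, 391 and 429 CPM against 207, 243 and 219 CPM and had a log2 fold change of -0.83 ± 0.12 (adjusted p = 0.0437).

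Zfp46 (ENSMUSG00000051351, chromosome 4, 136284683 to 136293942), a zinc finger protein, had the smallest p of the genes that fell. It measured 65.9, 55.3 and 60.1 CPM in the controls and 28.1, 25.4 and 31.0 CPM in SSDS-GFP, a log2 fold change of -1.10 ± 0.12 (adjusted p = 0.0309). Ndst1, which sulfates heparan sulfate chains, measured 64.9, 70.4 and 76.4 CPM against 34.7, 39.0 and 36.9 CPM (-0.94 ± 0.11, adjusted p = 0.0329). Neither gene showed an outlying library. Other regulators that fell were Prmt8, an arginine methyltransferase of neurons (-0.88 ± 0.13), Nr2c2, an orphan nuclear receptor (-0.97 ± 0.15), and Trmt61a, a tRNA methyltransferase subunit (-0.81 ± 0.12). Nr2c2 was the 1 gene of the 34 that was not called without SSDS-GFP 3. The adaptors Plekha2 and Garem1 had -0.86 ± 0.12 and -0.90 ± 0.13, and the little-described Ccdc9b and 2010300C02Rik had -1.13 ± 0.15 and -0.85 ± 0.13.

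**Figure D3:**
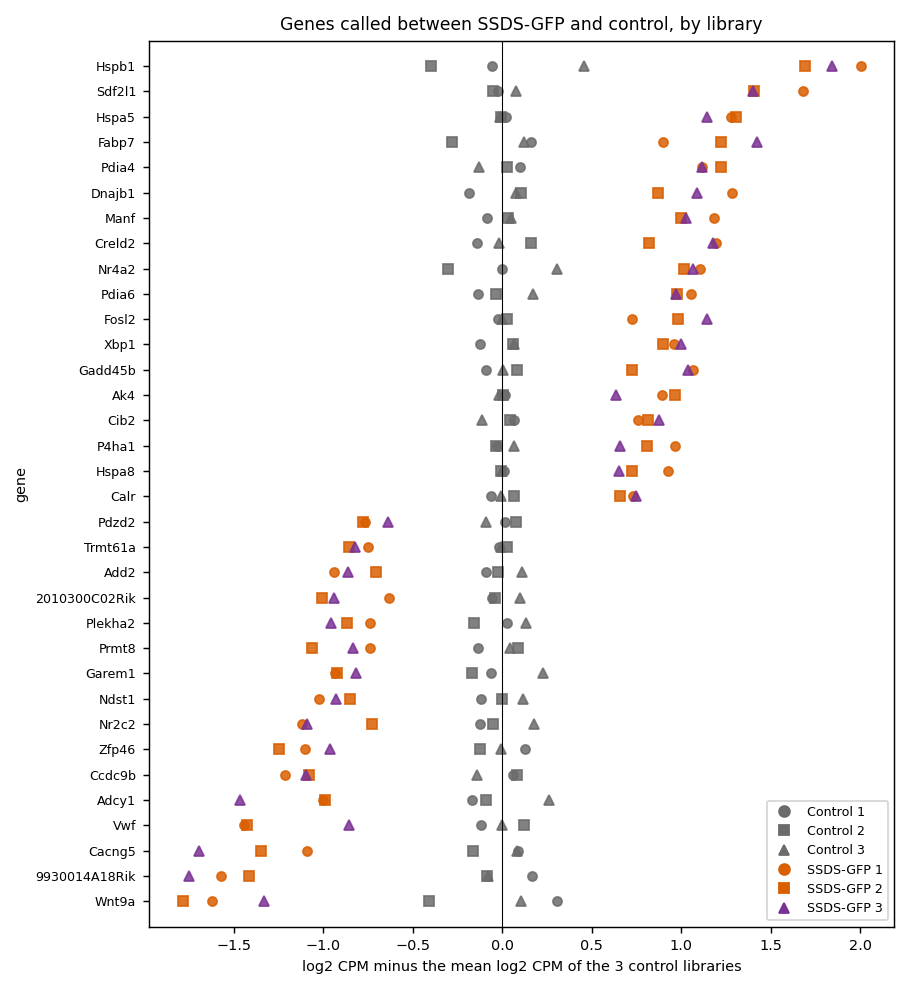
Log2 CPM of each of the 34 called genes in each library, minus the mean of the 3 controls, with controls in grey, SSDS-GFP 1 and 2 in orange and SSDS-GFP 3 in purple. All SSDS-GFP points of the 18 higher genes lie right of the control points and those of the 16 lower genes lie left of them.

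Fold changes also varied with gene length. When tested genes were divided by length into 8 bins, the bin of shortest genes had a median log2 value of 0.21 and that of longest genes -0.14. Called higher genes had a median length of 3226 bases and called lower genes 5395.5, against 4110 for all tested genes. With each library's trend with length removed, 35 genes were called, 29 of them among the 34.

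Nuclear genes of the respiratory chain and genes of the cytoplasmic ribosome lay mostly on the higher side without passing the test. Of 74 nuclear genes for the respiratory chain, 72 had a log2 fold change above 0 and the median was 0.45, but 0 were called. Cox7b, a subunit of cytochrome c oxidase, measured 122, 154 and 129 CPM in the controls and 244, 199 and 219 CPM in SSDS-GFP (0.71 ± 0.13, adjusted p = 0.0824). Its groups did not overlap, as in 50 of the 74 genes, with SSDS-GFP higher in each. Over all tested genes 12.8% were apart in that direction. Of 79 cytoplasmic ribosomal protein genes 76 lay above 0, with a median of 0.42 and 0 called, and the groups were apart in 35. Rpl39 measured 120, 131 and 122 CPM against 202, 167 and 194 CPM (0.59 ± 0.12, adjusted p = 0.0907). With the length trend removed these medians were 0.22 and 0.21. SSDS-GFP 2 scored lowest of its group in both lists, at 0.0116 and -0.111, and for ribosomal proteins it lay beside Control 2 (-0.115). Without it 37 and 51 members were called, in a fit that called 1051 of 16589 tested genes. Both lists held 0 called members without Control 1, 2 or 3 or SSDS-GFP 1. At an unadjusted p under 0.05 there were 54 higher and 0 lower genes in each of the 2 lists, against 1649 and 1268 of all 16207 tested genes. Of 13 mitochondrially encoded proteins 7 lay above 0, with a median of 0.13, 0 called and overlapping groups in each.

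Markers of the dentate gyrus, the granule cell layer of the hippocampus, lay below 0 in 16 of 20 members, with 1 called lower and 0 called higher, at a median of -0.40. The share called lower over all tested genes was 0.0987%. Pdzd2 (ENSMUSG00000022197, chromosome 15, 12359711 to 12739924), a scaffold protein with PDZ domains, measured 66.0, 68.9 and 61.3 CPM in the controls and 38.4, 38.1 and 42.0 CPM in SSDS-GFP. Each group was tight (-0.73 ± 0.11, adjusted p = 0.0437), and the call was lost with the length trend removed. Dsp, the desmosomal protein desmoplakin that marks granule cells, measured 81.6, 87.5 and 79.1 CPM against 51.7, 46.5 and 37.2 CPM (-0.88 ± 0.14, adjusted p = 0.0571). All controls exceeded all SSDS-GFP libraries in 10 of the 20 genes, against 11.5% of all tested genes. The mean score was 0.17, 0.07 and 0.31 in the controls and -0.13, -0.13 and -0.30 in SSDS-GFP. Without SSDS-GFP 2, 6 members were called lower, in a fit that called 373 of 16589 tested genes lower. Leaving out Control 1, 2 or 3 or SSDS-GFP 1 gave 0 called members. In bulk tissue, fewer granule cells in a sample and less RNA per granule cell cannot be told apart, and this holds for every cell type list here.

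Potassium channel genes lay below 0 in 19 of 26 members, with a median of -0.22 and 0 called. Kcna1, a channel of axons that limits firing, measured 40.7, 43.4 and 63.1 CPM in the controls and 20.1, 27.5 and 16.9 CPM in SSDS-GFP (-1.19 ± 0.22, adjusted p = 0.0773). Glutamate receptor genes lay below 0 in 20 of 30 members with a median of -0.14, and Cacng5 was the single called member. It was called lower, as were 0.0987% of all tested genes. Grin2b, an NMDA receptor subunit, measured 467, 510 and 654 CPM against 380, 418 and 278 CPM, with SSDS-GFP 3 lowest (-0.60 ± 0.18, adjusted p = 0.149). With the length trend removed the medians of the 2 lists were -0.12 and -0.05.

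Neuropeptide genes had a median of 0.57, with 16 of 19 above 0 and 0 called. Vgf, a granule protein induced by activity, measured 132, 131 and 131 CPM against 204, 171 and 180 CPM (0.49 ± 0.11, adjusted p = 0.107). Adcyap1, which encodes the stress-linked peptide PACAP, measured 1.79, 2.98 and 1.13 CPM in the controls and 2.38, 11.2 and 14.98 CPM in SSDS-GFP, where SSDS-GFP 1 lay among the controls. Markers of the ventral pole had a median of 0.55, which was 0.28 without SSDS-GFP 3. Calb2, calretinin, measured 24.1, 30.9 and 10.4 CPM in the controls, 34.3 and 28.9 CPM in SSDS-GFP 1 and 2 and 139 CPM in SSDS-GFP 3.

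**Figure D4:**
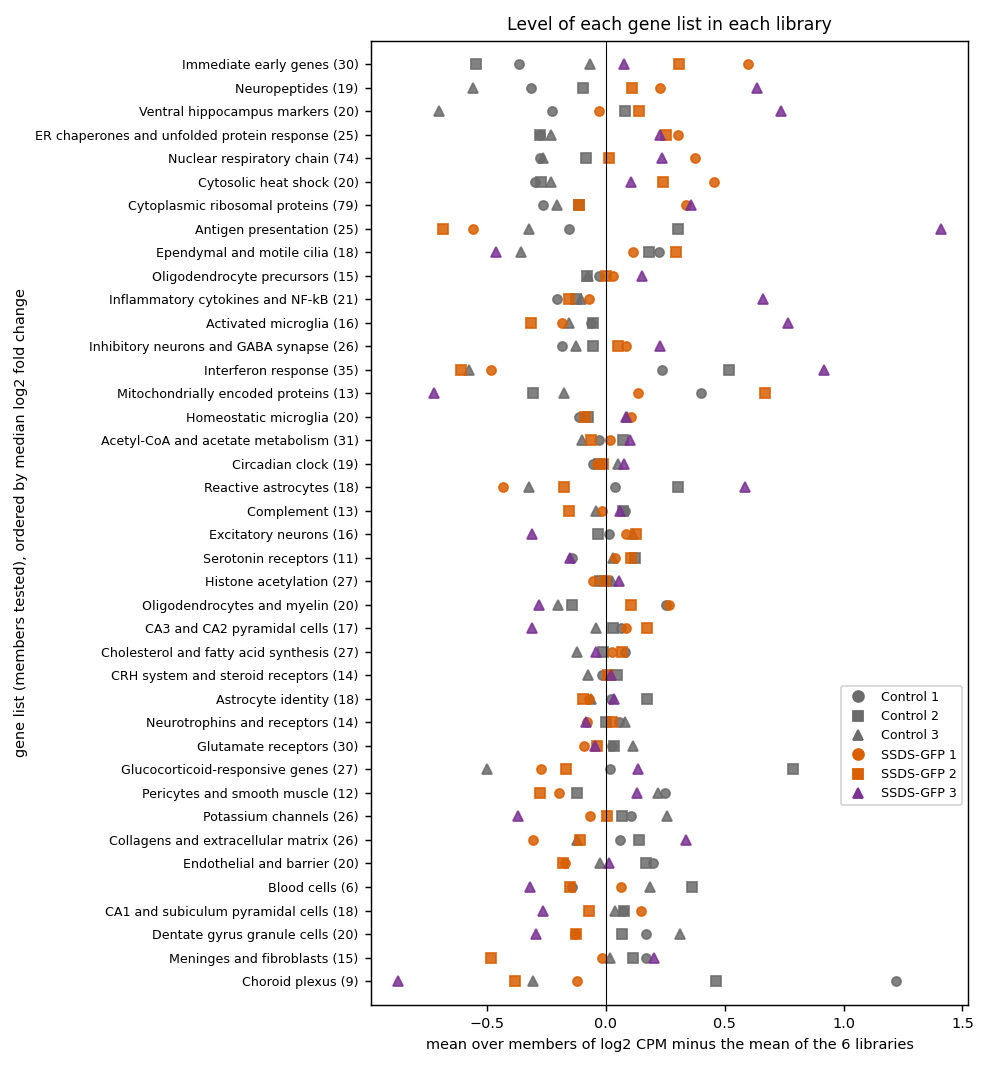
Mean over the tested members of each of the 40 gene lists of log2 CPM relative to the average of the 6 libraries, with 1 point for each library and lists ordered by their median log2 fold change. SSDS-GFP 3 (purple) stands to the right in antigen presentation at 1.41 and interferon response at 0.92. The ER chaperone and heat shock lists separate all SSDS-GFP libraries from all controls. Several other lists do so too, among them immediate early genes and the nuclear respiratory chain upward and the dentate gyrus downward.

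Vessel wall genes lay below 0 in 14 of 20 endothelial and barrier members, with 1 called lower, 0 called higher and a median of -0.28. The share called lower over all tested genes was 0.0987%. Vwf (ENSMUSG00000001930, chromosome 6, 125546774 to 125686679), the clotting factor that endothelial cells store, measured 24.8, 29.4 and 27.0 CPM in the controls and 9.95, 10.1 and 14.9 CPM in SSDS-GFP. SSDS-GFP 3 was the highest of its group but still below every control (-1.21 ± 0.18, adjusted p = 0.0437), and the call was lost with the length trend removed. Pecam1, an adhesion protein of endothelium, measured 23.8, 23.1 and 21.4 CPM against 12.5, 11.3 and 16.0 CPM (-0.78 ± 0.15, adjusted p = 0.0907). Of 6 tested blood cell genes 5 lay below 0 and 0 were called. Hbb-bs, a beta globin, overlapped between groups at 50.9, 69.8 and 65.4 CPM against 63.1, 50.1 and 35.1 CPM. Alas2, the heme synthesis enzyme of red cell precursors, was lower in all SSDS-GFP libraries, at 2.39, 2.33 and 2.13 CPM against 1.51, 1.64 and 1.26 CPM (-0.64 ± 0.27, adjusted p = 0.266).

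Choroid plexus markers varied among the controls, with a mean score of 1.22, 0.46 and -0.31 in Control 1, 2 and 3. Ttr, the thyroxine carrier of that tissue, measured 504, 140 and 7.88 CPM in Control 1, 2 and 3 and 16.6, 5.10 and 6.23 CPM in SSDS-GFP. Control 3 lay within the SSDS-GFP range, and the log2 fold change of -4.56 ± 1.17 did not pass (adjusted p = 0.121). Of the 18 listed markers 9 were tested, and all 9 lay below 0. Their order among libraries differed, and Kl, an anti-ageing protein, measured 34.9, 22.2 and 28.4 CPM in the controls and 21.7, 24.6 and 8.81 CPM in SSDS-GFP. The summed level of those markers was 561, 176 and 48.5 CPM in the controls and 50.3, 41.3 and 22.4 CPM in SSDS-GFP. Its part in the other results was not tested.

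In the immune lists SSDS-GFP 3 stood apart from SSDS-GFP 1 and 2, and no member was called. Of 25 antigen presentation genes 21 lay above 0 with 0 called, and the mean score was 1.41 in SSDS-GFP 3 against -0.56 and -0.68 in SSDS-GFP 1 and 2. Without SSDS-GFP 3 the median changed from 0.36 to -0.71. Cd74, the invariant chain of MHC class II, measured 1.46, 2.01 and 1.90 CPM in the controls and 1.08, 0.92 and 48.0 CPM in SSDS-GFP. Interferon response genes scored 0.92 in SSDS-GFP 3 and 0.52 in Control 2, and their median changed from 0.16 to -0.48 without SSDS-GFP 3. Of the 35 inflammatory cytokine and NF-kB genes, 32 had their highest raw count of the 6 libraries in SSDS-GFP 3. That library was the deepest, the 32 is not scaled for depth, and the share over all genes was not taken. On the scaled level the 21 tested members scored 0.66 in SSDS-GFP 3 against -0.07 and -0.155 in SSDS-GFP 1 and 2. Of the 35 genes, 14 were untested. Among these Il1b had 3, 5 and 6 counts in the controls and 0, 2 and 236 in SSDS-GFP, Il6 had 3, 0 and 4 against 0, 1 and 128, and the inflammasome gene Nlrp3 had 20, 7 and 6 against 9, 8 and 39.

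Homeostatic microglia genes had a median of 0.09 with 0 of 20 called, and -0.01 without SSDS-GFP 3. Activated microglia genes, with 0 of 16 called, scored 0.77 in SSDS-GFP 3 against -0.18 and -0.32 in SSDS-GFP 1 and 2. Their median of 0.19 was 0.00267 without SSDS-GFP 3. Aif1, the marker Iba1, measured 4.11, 5.64 and 7.59 CPM against 8.66, 5.43 and 9.21 CPM. Its groups overlapped, as did those of the myeloid integrin Itgam (0.07 ± 0.26), the lysosomal Cd68 (0.09 ± 0.31) and the lipopolysaccharide receptor Tlr4 (0.13 ± 0.48), with adjusted p of 0.906 or more for the last 3. Gfap, the astrocyte filament, measured 361, 322 and 379 CPM in the controls and 322, 267 and 313 CPM in SSDS-GFP (-0.24 ± 0.12, adjusted p = 0.342), where SSDS-GFP 1 and Control 2 nearly met. Of 18 reactive astrocyte genes 1 rose, Hspb1, which is also on the heat shock list, and the median was 0.03. The share called higher over all tested genes was 0.111%. The list scored 0.59 in SSDS-GFP 3 and -0.43 and -0.17 in SSDS-GFP 1 and 2, and without SSDS-GFP 3 its median was -0.30. Cp, the iron-handling ceruloplasmin, measured 18.1, 20.6 and 12.1 CPM in the controls and 8.15, 10.0 and 9.55 CPM in SSDS-GFP, below them in every library (-0.87 ± 0.21, adjusted p = 0.113).

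Genes of acetyl-CoA metabolism, the pathway of the enzyme knocked down elsewhere in the series, gave 0 calls, with 4 higher and 1 lower at an unadjusted p under 0.05. Over all 16207 tested genes, 1649 were higher and 1268 lower at that threshold. Acot12, the acetyl-CoA thioesterase that is the target of that knockdown, had 12, 10 and 9 counts in the controls and 3, 8 and 7 in SSDS-GFP and was left out by the filter. Of 31 tested genes of acetyl-CoA and acetate metabolism 18 lay above 0, with a median of 0.05. Acss2, which makes acetyl-CoA from acetate, measured 51.7, 53.0 and 47.2 CPM in the controls and 43.5, 45.1 and 42.9 CPM in SSDS-GFP, lower in all 3 libraries without passing the test (-0.21 ± 0.11, adjusted p = 0.336). Acss1, its mitochondrial relative, had 0.10 ± 0.11 and Acly, ATP citrate lyase, 0.19 ± 0.12. Acot7, the main brain thioesterase, measured 220, 228 and 207 CPM against 342, 267 and 310 CPM (0.49 ± 0.12, adjusted p = 0.121).

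Genes of the hormonal stress response also gave 0 calls, with 1 glucocorticoid-responsive gene higher and 6 lower at an unadjusted p under 0.05. Of 14 tested genes of the Crh system and steroid receptors, 3 were higher and 1 lower. Over all 16207 tested genes, 1649 were higher and 1268 lower. The median of the 27 glucocorticoid-responsive genes was -0.18, and 0.18 without Control 2, the library with the highest score (0.79). Fkbp5, a cochaperone of the glucocorticoid receptor, measured 80.2, 109 and 73.7 CPM in the controls and 80.0, 76.4 and 71.3 CPM in SSDS-GFP (-0.21 ± 0.16, adjusted p = 0.511). The glucocorticoid receptor Nr3c1 had -0.10 ± 0.20. The releasing hormone Crh averaged 1.45 ± 0.33 CPM in the controls and 2.14 ± 0.63 CPM in SSDS-GFP (0.57 ± 0.34, adjusted p = 0.411). These 3 genes had overlapping groups, while others of the same lists did not. Zbtb16, a glucocorticoid-induced zinc finger repressor, measured 31.0, 36.2 and 34.4 CPM against 21.7, 28.5 and 19.8 CPM (-0.54 ± 0.15, adjusted p = 0.134). Fkbp4, a cochaperone that promotes receptor signalling, measured 115, 126 and 124 CPM against 199, 157 and 215 CPM (0.65 ± 0.14, adjusted p = 0.102). Npy1r, a neuropeptide Y receptor, had -0.40 ± 0.11 and Oxtr, the oxytocin receptor, 0.65 ± 0.22, both apart between groups.

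The series' other groups were not in this fit, but their levels can be set beside it on a scale made from all 12 libraries. Those groups are CSDS, a treatment with no virus in the labels, and SSDS-shACOT12, with ACOT12 knocked down in the liver under SSDS. For Hspa5 the controls averaged 171 ± 1.89 CPM and the CSDS libraries 222 ± 43.1 CPM, while SSDS-GFP had 404 ± 24.9 CPM and SSDS-shACOT12 had 359 ± 20.1 CPM. Sdf2l1 averaged 9.64 ± 0.47, 14.0 ± 1.92, 27.3 ± 3.08 and 26.5 ± 1.56 CPM in the same order. For both genes the 2 groups with virus and SSDS lay above the other 2 by more than their spread, while CSDS 3 had 173 CPM of Hspa5, the same as Control 1. Cacng5 averaged 13.8 ± 1.34, 6.33 ± 1.10, 5.35 ± 1.10 and 6.03 ± 2.24 CPM, and Adcy1 1143 ± 192, 613 ± 130, 515 ± 91.8 and 466 ± 272 CPM. For these 2 genes the controls stood above all 3 other groups, which overlapped each other. All of these comparisons share the 3 control libraries, and none was tested here.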

How the data were processed

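RNA-seq libraries of mouse ventral hippocampus were made from 1 µg RNA with a NEBNext Ultra kit, per the labels' protocols. The submitters' processing notes name HISAT2 2.0.5, featureCounts 1.5.0-p3 and the build mm10. The strand setting, annotation release and filters were not given in the sources used here, so antisense pairs cannot be told apart. The authors deposited raw counts per gene and FPKM, which divide counts by gene length and library size. Of the deposited gene identifiers, 54409 matched GENCODE M21, which restored 27 symbols that had turned into dates.

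Genes were filtered on counts (filterByExpr, minimum 10, total 15), scaled by TMM and tested in edgeR 4.0.16 (R 4.3.3) with glmQLFit and glmQLFTest on the 6 libraries, 2-sided, with Benjamini-Hochberg adjustment over 16207 genes. Fold changes are log2 of SSDS-GFP over control with SE. Scores are means of log2 CPM with a prior count of 2. The method was tested on simulated data. Alternatives used DESeq2 1.42.0, limma 3.58.1, and log2 FPKM plus 0.1 or 1. Replicate pairs differed by more than sampling noise.

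The comparison, the lists and the alternatives were chosen with earlier results of these data known. Genes were named by rule: the 12 largest folds each way among called genes with mean log2 CPM of at least 1, the 4 members of each list with the smallest p, a set of always reported genes, and, for SSDS-GFP 3, the 10 genes that differed most from the rest of its group at mean log2 CPM of at least 3. The other called genes (Ak4, Cib2, P4ha1, Calr, Add2, Trmt61a and 2010300C02Rik), the ER transducers, the promoter motif and its genes, Malat1 and the immune genes outside the test were named after their values were seen. Promoter windows came from RefSeq on GRCm38.p6.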

Additional observations from a re-analysis of the deposited data

Results flagged for a closer look

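A signal was seen among genes that the count filter had left out of the test. In SSDS-GFP 3, 57 such genes had at least 30 counts and at least 8 times the count of every other library of the comparison. Ccl5 reached 1391 counts there and at most 8 in the controls, and Tnf reached 219 counts and at most 2 in the controls. Of all 12 libraries, SSDS-shACOT12 3 had the second highest count for 40 of the 57 genes, with 1056 counts summed over them against 8712 in SSDS-GFP 3. The cytokine subunit Il12b had 89 counts in SSDS-GFP 3, 0 in the other 5 libraries of the comparison and 18 in SSDS-shACOT12 3. Where these transcripts came from was not tested.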

How the results depend on the processing

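All 34 called genes had the same sign under each of the 19 alternatives, which their non-overlapping groups largely fixed in advance. The number of calls varied. It was 1077 genes (692 higher, 385 lower) with no filter, 713 (434 and 279) with DESeq2's Wald test and 1242 (775 and 467) with limma-voom and quality weights. It was 8 (6 and 2) with limma-voom, 8 (6 and 2) with FPKM plus 0.1, 9 (7 and 2) with FPKM plus 1, and 16 (13 and 3) with all 12 libraries. A minimum of 50 counts gave 45 (18 and 27), so 40% were higher against 52.9% above, and DESeq2's size factors gave 34 genes, 33 of them the same. Leaving out 1 library gave 0 to 1051 genes, 0 to 678 higher and 0 to 373 lower. With a replicate block edgeR called 0 genes, with 1851 at an unadjusted p under 0.05. The labels do not say that numbers pair the libraries. In deviations from their group means, same-numbered libraries had correlations of -0.07, -0.29 and -0.25, and others had -0.0893 to 0.321. Such deviations within groups of 3 constrain each other, so these values cannot show whether libraries were paired. Among uncalled genes the sign turned with quality weights for Cd68 (-0.0185) and Itgam (-0.0285), and with the length trend removed for Cd68 (-0.179) and Ptprc (0.0524). Leaving out 1 library gave -0.278 to 0.334 for Cd68, -0.232 to 0.282 for Itgam, -0.254 to 0.678 for Tlr4, -0.253 to 0.11 for Nr3c1, -0.533 to 0.0503 for Ptprc and -0.839 to 3.78 for Cd74. The cause of these differences was not tested. Genes with few counts are limited most by depth, such as Acot12 with 3 to 12 counts a library.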

Other observations

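Genes of circadian timing, histone acetylation and sterol synthesis gave 0 calls, with median log2 fold changes of 0.05 over 19, 0.02 over 27 and 0.00 over 27 tested genes (0.01, 0.01 and 0.04 without SSDS-GFP 3). Nfil3, a repressor that clock output controls, measured 8.28, 8.17 and 8.53 CPM in the controls and 14.2, 13.7 and 19.3 CPM in SSDS-GFP (0.92 ± 0.17, adjusted p = 0.0824). All SSDS-GFP libraries exceeded the tightly grouped controls. Per3, a period gene, measured 41.7, 45.7 and 42.2 CPM against 25.8, 31.9 and 31.3 CPM (-0.54 ± 0.12, adjusted p = 0.107). Hdac4, a histone deacetylase that shuttles with neuronal activity, measured 34.3, 39.8 and 36.0 CPM against 53.1, 51.0 and 52.6 CPM (0.51 ± 0.11, adjusted p = 0.102).

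Of 26 genes of inhibitory neurons and the GABA synapse, 22 lay above 0 with a median of 0.19 (0.11 without SSDS-GFP 3) and 0 calls. Dlx5, a homeobox factor of the interneuron lineage, measured 1.59, 1.82 and 1.66 CPM in the controls and 3.68, 3.73 and 4.40 CPM in SSDS-GFP (1.22 ± 0.24, adjusted p = 0.0935). Its groups lay far apart for a gene of this low level. Malat1, an abundant nuclear noncoding RNA, measured 813, 716 and 629 CPM against 309, 444 and 416 CPM (-0.89 ± 0.16, adjusted p = 0.0759), and all 3 SSDS-GFP libraries were below the controls.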
